A study of Homo sapiens with 12 samples.

Results

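The HOX genes encode homeodomain transcription factors and lie in 4 clusters, HOXA on chromosome 7, HOXB on chromosome 17, HOXC on chromosome 12 and HOXD on chromosome 2. A deposited region was counted as a HOX region where it lay inside 1 of 38 HOX genes, or within 5 kb of its start, by the symbols and distances given with the region. By this rule 65 of 327931 regions of 5-hydroxymethylcytosine (5hmC) and 10 of 65535 listed regions of 5-methylcytosine (5mC) were HOX regions. The 5hmC regions covered 51200 bases of hg19 and were listed at 31 of the 38 genes. The other members, HOXB4, HOXB5, HOXC11, HOXD1, HOXD4, HOXD12 and HOXD13, had no listed 5hmC region under the rule. The 5mC regions were listed at 10 genes, HOXA3, HOXA4, HOXA5, HOXA6, HOXA7, HOXB3, HOXB6, HOXB7, HOXB9 and HOXD3, and at no HOXC gene.

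The differentiated group was HL-60, an established human promyelocytic leukaemia line, kept for 7 days in 211 mM dimethyl sulfoxide (DMSO, 1.5% by volume) and sorted as viable cells positive for the surface integrin CD11b. Undifferentiated cells of the same line were sorted as viable and CD11b-negative. Each state had 3 biological replicates, and the DNA of each was divided between an antibody against 5hmC and an antibody against 5mC, which gave 12 libraries. Both states come from 1 cell line and are sorted fractions, so effects of DMSO and of the sort cannot be told apart.

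5mC is written on cytosines, mostly where a guanine follows (CpG), by DNA methyltransferases, and TET dioxygenases oxidise it to 5hmC. In embryos HOX genes set position along the body axis. In blood, HOXA7, HOXA9, HOXA10 and several HOXB genes are expressed in stem and progenitor cells, and HOXA9 with its partner MEIS1 sustains many myeloid leukaemias. HOX clusters are rich in CpG islands and are held silent or active by Polycomb and trithorax-type complexes. Antibody capture gives an amount of marked DNA recovered, not a percentage of modified cytosines, and it moves with CpG density and copy number. These marks do not measure expression, so the labelled cell states could not be checked against expressed markers.

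The sequence context of 4 gene starts is shown because regions at or next to them are described below. At HOXA4 and HOXA6 5hmC was higher in differentiated cells, and near a start of HOXC4 it was lower. Next to the HOXA2 start 1 region was higher, with overlapping states, but HOXA2 did not pass as a gene. Each window runs from 250 bases before to 50 bases after the start, on the strand of the gene, from RefSeq on GRCh38.p14, with each CpG in capitals. The windows lie at chr7:27102634-27102933 (minus strand, HOXA2), chr7:27130708-27131007 (minus strand, HOXA4), chr7:27147725-27148024 (minus strand, HOXA6) and chr12:54016638-54016937 (plus strand, HOXC4, the same window as that of HOXC5). The HOXA2 window held 11 CpGs, that of HOXA4 27, that of HOXA6 29 and that of HOXC4 15.
HOXA2: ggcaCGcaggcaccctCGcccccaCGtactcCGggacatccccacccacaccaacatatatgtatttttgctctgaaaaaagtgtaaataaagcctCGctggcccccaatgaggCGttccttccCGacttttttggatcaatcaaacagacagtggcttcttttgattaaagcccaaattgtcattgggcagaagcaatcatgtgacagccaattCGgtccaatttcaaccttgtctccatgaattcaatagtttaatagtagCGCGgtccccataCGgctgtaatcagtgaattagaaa
HOXA4: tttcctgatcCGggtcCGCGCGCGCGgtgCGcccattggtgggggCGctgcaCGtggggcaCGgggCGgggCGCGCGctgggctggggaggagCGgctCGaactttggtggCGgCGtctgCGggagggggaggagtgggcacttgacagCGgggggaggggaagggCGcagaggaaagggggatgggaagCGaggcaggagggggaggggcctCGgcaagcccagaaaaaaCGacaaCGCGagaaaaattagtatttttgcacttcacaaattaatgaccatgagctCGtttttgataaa
HOXA6: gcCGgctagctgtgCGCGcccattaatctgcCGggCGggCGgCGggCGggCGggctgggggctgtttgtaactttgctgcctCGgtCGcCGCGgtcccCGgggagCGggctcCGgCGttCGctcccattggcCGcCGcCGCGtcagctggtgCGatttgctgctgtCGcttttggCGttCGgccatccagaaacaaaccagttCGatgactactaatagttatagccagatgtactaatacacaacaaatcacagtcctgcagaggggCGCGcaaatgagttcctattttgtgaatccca
HOXC4: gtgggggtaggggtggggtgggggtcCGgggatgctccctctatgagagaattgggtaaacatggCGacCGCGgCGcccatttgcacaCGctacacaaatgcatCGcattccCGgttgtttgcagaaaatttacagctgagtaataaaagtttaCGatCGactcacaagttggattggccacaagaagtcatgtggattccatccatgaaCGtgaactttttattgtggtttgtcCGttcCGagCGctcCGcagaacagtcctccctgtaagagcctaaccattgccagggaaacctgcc

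Windows were found for 20 of the 38 members, 27 windows in all. The letters CG were searched, which read the same on both strands and cannot overlap one another. HOX windows held a median of 22 CpGs (0 to 44), against 14 in 35089 windows of other genes, and 96.0% of all windows held at least 1. The deposited regions are on hg19 and their coordinates were not converted, so no base of a window is placed inside a region.

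Across the 4 clusters 5hmC was mostly higher in differentiated cells. Of the 65 HOX regions, all of which were tested, 35 rose, 10 fell and 20 did not pass (quasi-likelihood F test of edgeR, p adjusted by Benjamini-Hochberg and below 0.05, n = 3 per state). Among all 5hmC regions 27.0% rose and 23.3% fell. The HOX regions had a median log2 fold change (differentiated over undifferentiated) of 0.47, against −0.04 for all regions. The 3 libraries of one state did not overlap those of the other at 39 of the 65 HOX regions, against 52.2% of all regions. A called change was small: the median absolute log2 fold change was 0.73 in the HOX regions that rose and 0.68 in those that fell, and 0.72 and 0.73 in all regions that rose and that fell.

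The number of calls depended on the scaling of the libraries. With library totals in place of TMM scaling, 17 HOX regions rose and 11 fell, and with TMM computed on the strongest 10% of regions 9 rose and 11 fell. These scalings moved the median of all 5hmC regions to −0.25 and −0.33. A change of scaling moves every region by about the same amount, so the difference between the HOX median and that of all regions, 0.51, does not depend on it. DESeq2's Wald test called 12 higher and 1 lower, and 65.0% of all 5hmC regions it called were higher.

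Over 12 fits, the 1 reported and its 11 alternatives, 10 HOX regions passed every time, 9 higher and 1 lower. The 9 were 3 regions of HOXC9, and 1 region each of HOXA4, HOXA6, HOXB6, HOXC4, HOXD8 and HOXD11. The region that was lower in all fits lies before the start of HOXC4, HOXC5 and HOXC6. All 45 called regions kept their sign in the 12 fits. This count over fits was chosen after the data were seen. The shares of all regions that passed, or kept their sign, in all 12 fits are not given. Whether HOX regions differ from other regions in these counts was therefore not tested.

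Summed per gene, 5hmC rose at 15 HOX genes, fell at 3 and did not pass at 13 of the 31 with a region, while 25.7% of all 20404 genes rose and 25.8% fell. The median over the 31 HOX genes was 0.27 and over all genes 0.01. A gene's value adds up its regions, and 10 of the 65 regions were shared by more than 1 member, so the genes are not independent. With library totals 8 HOX genes rose, and DESeq2's Wald test called 9, all higher, which were HOXA4, HOXA6, HOXA7, HOXA9, HOXB3, HOXB9, HOXC9, HOXD8 and HOXD9. Without differentiated replicate 1 or 3 or undifferentiated replicate 1, edgeR called 10, 9 and 10 HOX genes in place of 18. Shares over all genes are not given for these alternatives.

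The levels below are in CPM, which are a library's counts relative to its TMM-scaled total, and library values are listed for replicates 1, 2 and 3 in that order.

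**Figure D1:**
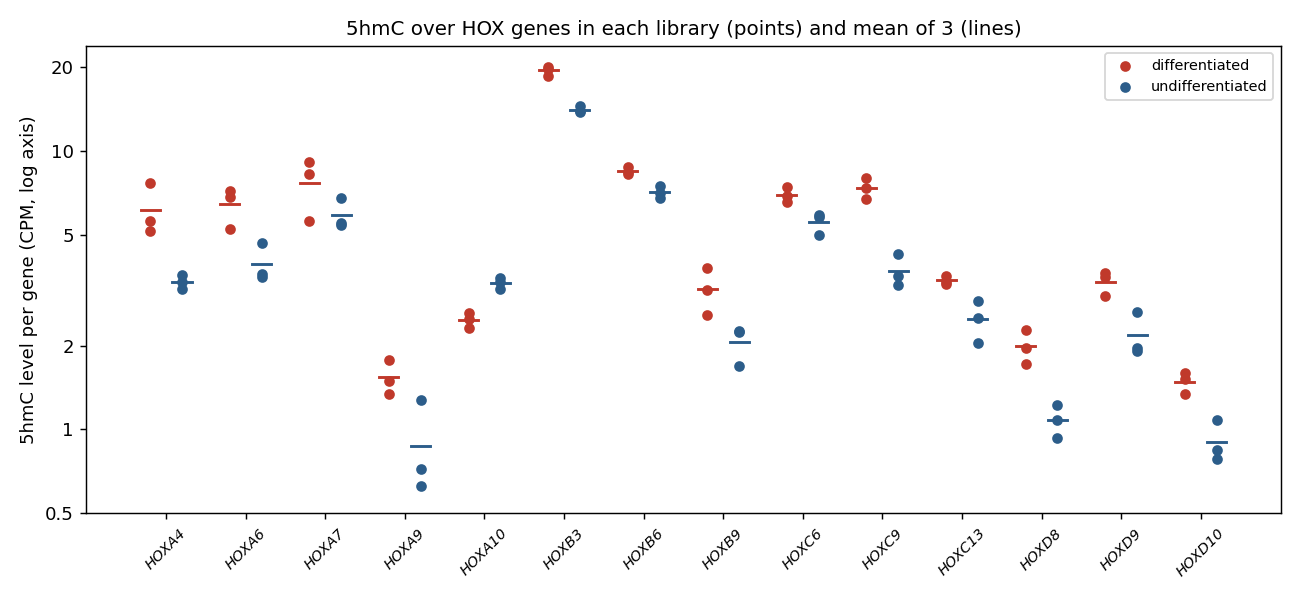
5hmC level of 14 HOX genes in CPM (log axis), with the 3 differentiated libraries left of the 3 undifferentiated ones; points are libraries and lines are means of 3. The states are apart for all genes shown except HOXA7, and HOXA10 is the only gene shown that is lower in differentiated cells.

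In the HOXA cluster HOXA4, HOXA5, HOXA6, HOXA7 and HOXA9 rose, HOXA10 and HOXA11 fell, and HOXA2 (0.13), HOXA3 (0.16) and HOXA13 (−0.33) did not pass as genes. HOXA4, a gene of the anterior part of the cluster, had 5.62, 7.67 and 5.18 CPM in differentiated replicates 1, 2 and 3, against 3.58, 3.38 and 3.19 CPM in the undifferentiated replicates. Every differentiated library was above every undifferentiated one, and the log2 fold change was 0.78 (SE 0.152, edgeR adjusted p = 0.00105). Its 1 region, in an island and listed at distance 0 from the gene start (chr7:27168601-27169800, hg19), rose by 0.81 on the log2 scale.

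HOXA6, a central gene active in blood progenitors, had 6.85, 5.26 and 7.17 CPM in differentiated replicates, against 3.52, 4.66 and 3.61 CPM in undifferentiated ones. Both states stayed apart, though differentiated replicate 2 and undifferentiated replicate 2 lay within 1 CPM of each other. The log2 fold change was 0.78 (SE 0.145, edgeR adjusted p = 0.000768), and both of its island regions rose. HOXA5, a regulator of lung and of myeloid development, rose by 0.70 (SE 0.256) on 1 island region with overlapping states.

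HOXA9, the leukaemia-associated progenitor gene, had a low level of 1.78, 1.34 and 1.50 CPM in differentiated replicates, against 0.628, 1.27 and 0.723 CPM in undifferentiated ones. Undifferentiated replicate 2 came close to the differentiated libraries without reaching them. The log2 fold change was 0.89 (SE 0.268, edgeR adjusted p = 0.0137), and it did not pass without undifferentiated replicate 1 (0.60, adjusted p = 0.123) or differentiated replicate 1 (0.79, adjusted p = 0.0578). Its single region, an island region inside the gene (chr7:27203001-27204000), had 12 to 48 counts per library.

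HOXA7, which is expressed with HOXA9 in progenitors, had 8.24, 5.62 and 9.14 CPM in differentiated replicates, against 5.52, 6.76 and 5.42 CPM in undifferentiated ones. Differentiated replicate 2 fell within the undifferentiated range. The log2 fold change was 0.46 (SE 0.146, edgeR adjusted p = 0.0176), and it did not pass with library totals (0.26, adjusted p = 0.176). Nor did it pass without differentiated replicate 1 or 3 or undifferentiated replicate 1 or 3 (0.29 to 0.44, adjusted p 0.0537 to 0.152).

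HOXA10, a progenitor gene next to HOXA9, went the other way. It had 2.62, 2.50 and 2.31 CPM in differentiated replicates, against 3.50, 3.38 and 3.19 CPM in undifferentiated ones, and the states did not overlap. The log2 fold change was −0.47 (SE 0.148, edgeR adjusted p = 0.0169), but it did not pass without differentiated replicate 3 (−0.40, adjusted p = 0.0978) or undifferentiated replicate 1 (−0.43, adjusted p = 0.0797). The value comes from 1 region of 600 bases listed at distance 0 from the gene start (chr7:27218801-27219400), which was the single HOX island region that fell. HOXA11, a limb and kidney gene, fell by 0.69 (SE 0.224) on 1 shore region (within 2 kb of an island). HOXA13, the most posterior member, did not pass (log2 fold change −0.33), nor did HOXA2 (0.13) and HOXA3 (0.16).

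Within HOXA2 and HOXA3 regions went in different directions. HOXA2 patterns the hindbrain, and the region 7 bases upstream of its start (chr7:27142401-27143400) had 2.03, 2.33 and 3.57 CPM in differentiated replicates, against 1.76, 2.12 and 1.87 CPM in undifferentiated ones. The states overlapped, and the log2 fold change was 0.57 (SE 0.195, edgeR adjusted p = 0.0137). This region passed in 6 of the 12 fits, which gave log2 fold changes of 0.18 to 0.74. The island region with the highest level per kb of the cluster, counted for HOXA2 and HOXA3 (chr7:27147201-27147600, 5.72 CPM per kb), had 1.80, 2.86 and 1.78 CPM in differentiated replicates and 2.60, 2.51 and 2.17 CPM in undifferentiated replicates and did not pass (−0.29, SE 0.195). Differentiated replicate 2 was the highest of the 6 libraries there, and without it the region passed as lower (−0.46, adjusted p = 0.0480).

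In the HOXB cluster no gene fell. HOXB3, an anterior gene expressed in early blood progenitors, held 8 regions and the highest summed 5hmC of all members, with 19.7, 18.6 and 20.1 CPM in differentiated replicates, against 14.5, 13.8 and 14.0 CPM in undifferentiated ones. The states were far apart relative to the spread within each, and the log2 fold change was 0.47 (SE 0.0647, edgeR adjusted p = 0.000106). Of its 8 regions 5 rose and 3 did not pass. Its region with the highest level per kb (chr17:46628601-46628800, 4.81 CPM per kb) did not pass, with 1.24, 0.985 and 1.22 CPM in differentiated and 0.868, 0.675 and 0.785 CPM in undifferentiated replicates, although the states did not overlap.

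HOXB9, a posterior gene of this cluster, had 3.17, 2.59 and 3.81 CPM in differentiated replicates, against 2.24, 2.25 and 1.69 CPM in undifferentiated ones. No library of one state reached the other, and the log2 fold change was 0.67 (SE 0.179, edgeR adjusted p = 0.00733). Without differentiated replicate 3 it was 0.48 with adjusted p = 0.0807. HOXB6, a central gene studied in blood development, had 8.80, 8.29 and 8.42 CPM in differentiated replicates, against 6.77, 7.06 and 7.47 CPM in undifferentiated ones. Again without overlap of the states, the log2 fold change was 0.27 (SE 0.0933, edgeR adjusted p = 0.0247), and the call was lost with library totals (0.08, adjusted p = 0.606). It was also lost without differentiated replicate 1 or 3 or undifferentiated replicate 1 or 2 (0.23 to 0.29, adjusted p 0.0539 to 0.122).

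The HOXB6 change lay in 1 of its 2 regions. The shore region inside HOXB6 (chr17:46674201-46674800) is listed at a start of the antisense RNA gene HOXB-AS3, not at that of HOXB6. It had 3.10, 2.51 and 2.54 CPM in differentiated replicates, against 1.44, 1.54 and 1.27 CPM in undifferentiated ones. All differentiated libraries were well above the others, with a log2 fold change of 0.92 (SE 0.201, edgeR adjusted p = 0.000312), the largest called change of the cluster. The island region of 2200 bases that HOXB6 shares with HOXB7 did not pass (0.07, SE 0.146), at 5.81, 5.82 and 5.92 CPM in differentiated and 5.29, 5.40 and 6.22 CPM in undifferentiated replicates. HOXB1, HOXB2, HOXB7, HOXB8 and HOXB13 did not pass as genes, with log2 fold changes of −0.07 to 0.17.

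The HOXC cluster held the largest rise and the largest fall of all HOX regions. HOXC9, a posterior gene active in spinal cord patterning, had 7.35, 8.02 and 6.74 CPM in differentiated replicates, against 3.55, 4.26 and 3.31 CPM in undifferentiated ones. The lowest differentiated library stood above the highest undifferentiated library by more than the spread within either state, and the log2 fold change was 0.96 (SE 0.127, edgeR adjusted p = 8.05e-05). All 4 of its regions, each in an island shore, rose, by 1.28, 1.01, 1.07 and 0.75 in reference order. The first (chr12:54389601-54390000), 3878 bases upstream of the start, had 1.80, 1.25 and 1.47 CPM in differentiated replicates, against 0.488, 0.820 and 0.664 CPM in undifferentiated ones.

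HOXC13, a hair follicle gene at the posterior end, had 3.40, 3.57 and 3.34 CPM in differentiated replicates, against 2.51, 2.89 and 2.05 CPM in undifferentiated ones. No library overlapped the other state, and the log2 fold change was 0.44 (SE 0.157, edgeR adjusted p = 0.0309), which did not pass without differentiated replicate 1 or 3 or undifferentiated replicate 1 or 3 (0.35 to 0.46, adjusted p 0.0676 to 0.0943). The call was also lost with library totals (0.25, adjusted p = 0.236), with TMM on strong genes (adjusted p = 0.0733) and with DESeq2 (adjusted p = 0.0848). HOXC6, a gene of the thoracic region, had 6.90, 7.40 and 6.55 CPM in differentiated replicates, against 5.82, 5.00 and 5.90 CPM in undifferentiated ones. The states were apart by less than 1 CPM at their nearest, and the log2 fold change of 0.29 (SE 0.111, edgeR adjusted p = 0.0400) was lost with library totals (0.10, adjusted p = 0.522) and without any single library other than differentiated replicate 3 (0.23 to 0.34, adjusted p 0.0511 to 0.131).

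The region with the highest 5hmC level per kb of all HOX regions was listed at distance 0 from the start of HOXC12, another hair follicle gene (chr12:54349601-54350200, 5.98 CPM per kb). It had 4.40, 5.01 and 3.32 CPM in differentiated replicates, against 3.26, 2.17 and 3.38 CPM in undifferentiated ones. The states overlapped at differentiated replicate 3, and the log2 fold change of 0.45 (SE 0.170, edgeR adjusted p = 0.0252) was 0.16 with TMM on strong regions (adjusted p = 0.431). It did not pass without differentiated replicate 1 or 2 or undifferentiated replicate 2 (0.29 to 0.39, adjusted p 0.0827 to 0.176). HOXC4 and HOXC5 (0.19 and 0.21), HOXC8 (0.03), HOXC10 (−0.02) and HOXC12 (0.42) did not pass as genes.

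Next to a start of HOXC4, HOXC5 and HOXC6 a short region lost 5hmC while its neighbours gained it. The region of 400 bases that lies 243 bases before the start shared by HOXC4, HOXC5 and HOXC6 (chr12:54410001-54410400) had 0.338, 0.716 and 0.438 CPM in differentiated replicates, against 1.30, 1.40 and 1.69 CPM in undifferentiated ones. All differentiated libraries were far below all undifferentiated ones, and the log2 fold change was −1.61 (SE 0.307, edgeR adjusted p = 5.70e-05), the largest change of any HOX region. The next region (chr12:54411001-54411600), 600 bases on, lies past that start and inside the genes, although its listed distance to the start is 0. It had 2.37, 1.79 and 1.82 CPM in differentiated replicates, against 1.38, 1.35 and 0.845 CPM in undifferentiated ones. The rise was 0.67 (SE 0.227, edgeR adjusted p = 0.0131). On the other side, 2000 bases away, chr12:54407601-54408000 rose by 0.84 (SE 0.258). The printed HOXC4 window also surrounds a start that HOXC4 shares with HOXC5, but whether it is the start used in the deposited distances was not tested.

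**Figure D2:**
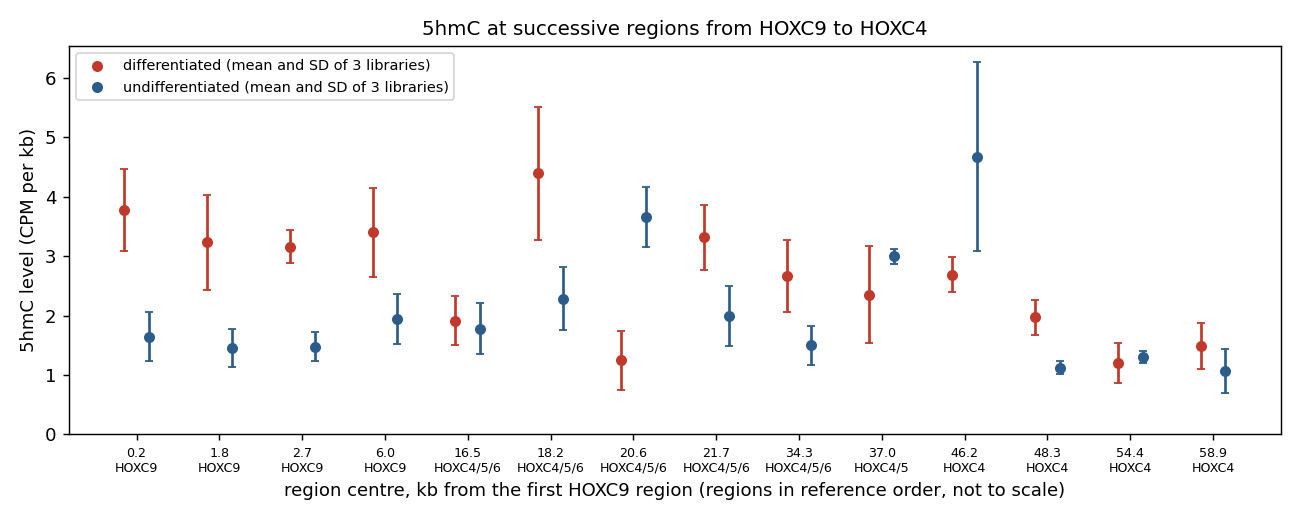
5hmC level (CPM per kb, mean and SD of 3 libraries) at 14 successive regions from HOXC9 to HOXC4, differentiated left of undifferentiated; the axis gives each region's distance in kb from the first HOXC9 region. The 4 HOXC9 regions are higher in differentiated cells, and the region before the HOXC4, HOXC5 and HOXC6 start is lower between 2 regions that are higher.

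Such pairs were found in all 4 clusters. There were 10 pairs of consecutive HOX regions of which one rose and the other fell, and in 8 of them the gap between the regions was under 3 kb (600 to 2600 bases). These 8 are 24.2% of the 33 pairs of consecutive HOX regions at most 3 kb apart, while 8.17% of 138536 such pairs over all 5hmC regions had opposite calls. Where both regions of a pair were called, the calls were opposite in 8 of 16 HOX pairs and in 32.1% of 35251 pairs over all regions. Pairs share regions, and the shares were not tested against each other. In these 8 pairs both regions kept their signs under all 12 fits run, though not always their calls. In HOXA3, a shore region 787 bases from a start (chr7:27160001-27160400) fell by 0.69 (SE 0.289) between regions that rose by 0.73 and 0.67. It had 0.733, 0.537 and 0.751 CPM in differentiated replicates, against 1.09, 1.21 and 1.15 CPM in undifferentiated ones, with no overlap. Upstream of HOXB13, a prostate gene, a shore region (chr17:46808401-46809000) fell by 0.54 between island regions that rose by 0.74 and 0.47. Inside HOXC4, a gene also expressed in lymphocytes, a region fell by 0.82 (chr12:54435601-54436000), and 1200 bases further on another rose by 0.87. At HOXD11 a shore region (chr2:176968201-176968800) fell by 0.72, and 1000 bases further on an island region rose by 0.66. Of the 10 regions that fell, 1 lay in an island, 6 in shores and 3 elsewhere, against 16, 15 and 4 of the 35 that rose. The counts behind single HOX regions were 4 to 195 per library, and without differentiated replicate 3 or undifferentiated replicate 1 only 2 and 3 regions passed as lower.

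**Figure D3:**
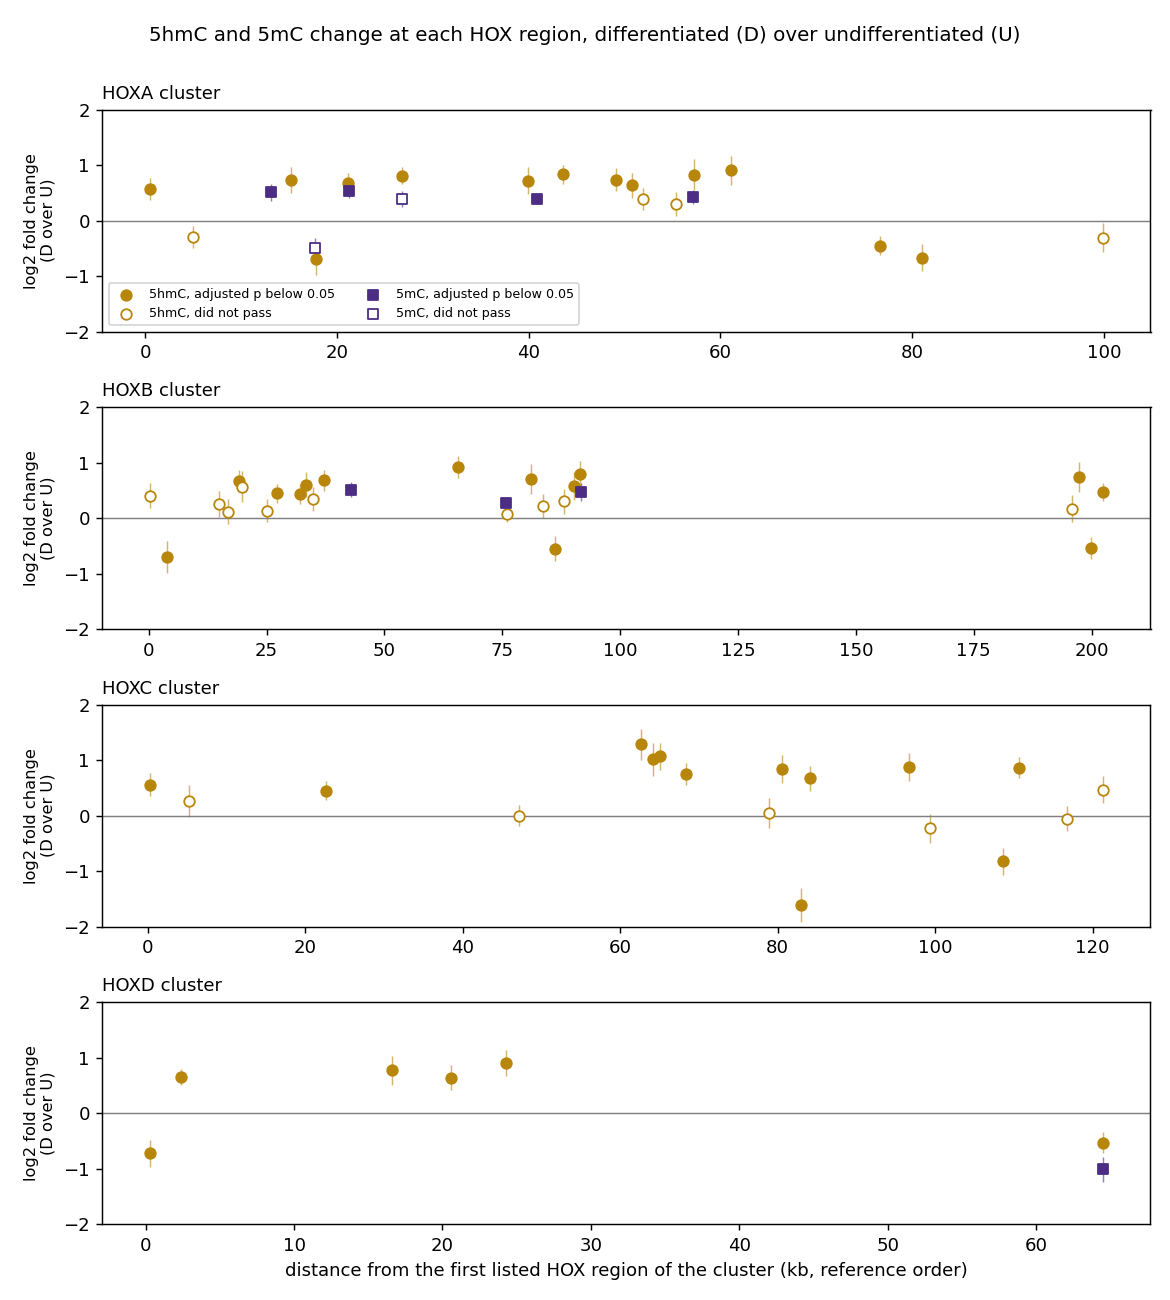
Log2 fold change of each HOX region (differentiated over undifferentiated, with SE) against its distance in kb from the first listed HOX region of the cluster, for 5hmC (circles) and 5mC (squares). Filled points passed the test; HOXA and HOXC show long runs of higher regions, and single lower regions stand between higher ones in HOXA, HOXB and HOXC.

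In the HOXD cluster 4 genes rose and 1 fell. HOXD8, a central gene, had 2.28, 1.96 and 1.72 CPM in differentiated replicates, against 0.928, 1.23 and 1.08 CPM in undifferentiated ones, from 1 shore region 1623 bases upstream of its start (chr2:176992201-176992800). The states did not overlap, and the log2 fold change was 0.88 (SE 0.212, edgeR adjusted p = 0.00386). HOXD10, a limb gene, had 1.34, 1.52 and 1.59 CPM in differentiated replicates, against 0.846, 0.784 and 1.08 CPM in undifferentiated ones, with no overlap. Its log2 fold change was 0.76 (SE 0.219, edgeR adjusted p = 0.0113) and rests on a region shared with HOXD9; with library totals it was 0.56 and did not pass (adjusted p = 0.0616), nor without differentiated replicate 3 (0.66, adjusted p = 0.0705) or undifferentiated replicate 1 (0.70, adjusted p = 0.0625).

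HOXD9, another limb gene, had 3.01, 3.66 and 3.52 CPM in differentiated replicates, against 1.97, 1.91 and 2.65 CPM in undifferentiated ones. All differentiated libraries were higher, and the log2 fold change was 0.68 (SE 0.170, edgeR adjusted p = 0.00490). The region with the highest level per kb of the cluster lay 685 bases upstream of HOXD11 (chr2:176969801-176971400, 3.04 CPM per kb), with 5.97, 5.82 and 6.11 CPM in differentiated replicates, against 4.04, 3.47 and 3.80 CPM in undifferentiated ones. The libraries of each state lay close together there, and the region rose by 0.66 (SE 0.149, edgeR adjusted p = 0.000475). HOXD3, the most anterior HOXD gene with a region, fell by 0.55 (SE 0.191) with overlapping states.

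5mC was listed at fewer HOX regions. The listed 5mC regions are those the authors' table ranks most significant, so the regions had been selected for a difference between the states. The list holds 65535 regions, while its p-values imply 328588 tests. The number of HOX regions therefore cannot be compared with that of 5hmC, and a gene without a listed region may still carry 5mC. Of the 10 HOX regions 7 were higher and 1 lower in differentiated cells by edgeR's quasi-likelihood test, and 2 did not pass, while 35.7% of all listed regions were higher and 37.1% lower. The states did not overlap at 9 of the 10, against 86.1% of all listed regions. The median log2 fold change was 0.41 for the HOX regions and 0.22 for all listed ones. With library totals, and likewise with TMM on the strongest 10% of regions, edgeR called 0 HOX regions higher and 2 lower, and the median of all listed regions moved to −0.03 and −0.06. Of all called 5mC regions 7.09% and 5.61% were higher with these scalings, against 49.0% in the reported fit. With strong-region TMM 1 of the 8 called regions changed sign. DESeq2's Wald test called 1 higher and 0 lower, and without differentiated replicate 1 edgeR called 4 higher and 2 lower. HOXA9 and HOXA10 had no listed 5mC region under the rule. Per gene 9 members were higher and 1 lower, against 41.0% and 43.2% of 12637 genes, and with library totals only HOXD3 passed. These gene p-values carry no correction for the selection, and HOXA4 passed as a gene although its region did not.

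In the HOXA cluster HOXA7 had 18.3, 14.9 and 17.7 CPM of the listed 5mC counts in differentiated replicates, against 10.8, 13.0 and 13.1 CPM in undifferentiated ones. No library of one state reached the other, and the log2 fold change was 0.47 (SE 0.122, edgeR adjusted p = 0.000482). The value comes from 1 island region outside the gene (chr7:27198801-27200200). That region is listed 2505 bases from the HOXA7 start and 1858 bases from HOXA9. HOXA4 had 11.7, 12.0 and 12.7 CPM in differentiated replicates, against 7.27, 10.5 and 9.18 CPM in undifferentiated ones, with a log2 fold change of 0.44 (SE 0.142, edgeR adjusted p = 0.00423). The 3 differentiated libraries were close together and above the undifferentiated ones, whose lowest was replicate 1, and without that replicate the call was lost (0.31, adjusted p = 0.0658). The HOXA4 value is that of 1 region, which did not pass at region level (edgeR adjusted p = 0.0504). HOXA5 and HOXA6 share a 5400-base island region (chr7:27180601-27186000), with 44.5, 48.9 and 48.9 CPM in differentiated replicates, against 36.1, 35.1 and 33.6 CPM in undifferentiated ones. This region was clearly apart between the states at gene level, with a log2 fold change of 0.44 (SE 0.0721, edgeR adjusted p = 2.73e-07). With library totals HOXA4, HOXA5, HOXA6 and HOXA7 did not pass, at log2 fold changes of 0.13 to 0.17.

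The largest called 5mC change of the HOXA cluster was in an island region inside HOXA3 (chr7:27163001-27164400), at 16.1, 21.0 and 20.6 CPM in differentiated replicates, against 11.7, 13.8 and 14.3 CPM in undifferentiated ones. All differentiated libraries were higher, and the log2 fold change was 0.53 (SE 0.119, edgeR adjusted p = 0.00110). A shore region of HOXA3 (chr7:27159801-27160400) went the other way, at −0.50 (SE 0.194), and did not pass (edgeR adjusted p = 0.0644). In the HOXB cluster HOXB3 had 12.7, 13.2 and 13.1 CPM in differentiated replicates, against 8.60, 8.86 and 8.76 CPM in undifferentiated ones. Replicates differed by less than 1 CPM within each state, and the log2 fold change was 0.57 (SE 0.138, edgeR adjusted p = 0.000239). This is the region with the highest listed 5mC level per kb, a shore region listed at distance 0 from a HOXB3 start (chr17:46651401-46652200, 13.5 CPM per kb).

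HOXB9 had 7.56, 9.81 and 10.6 CPM of 5mC in differentiated replicates, against 7.14, 5.61 and 6.50 CPM in undifferentiated ones. Differentiated replicate 1 was just above the undifferentiated range, and the log2 fold change was 0.53 (SE 0.166, edgeR adjusted p = 0.00367). The island region shared by HOXB6 and HOXB7 (chr17:46683001-46686000) had 45.3, 43.0 and 38.4 CPM in differentiated replicates, against 33.1, 33.1 and 34.8 CPM in undifferentiated ones. The states did not overlap, and the gene-level log2 fold change of 0.33 (SE 0.0757, edgeR adjusted p = 0.000131) was 0.02 with library totals (adjusted p = 0.836).

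Of the members with a listed 5mC region only HOXD3 was lower as a gene. Its 5mC region, outside islands and shores (chr2:177032201-177033200), had 2.18, 2.80 and 3.85 CPM in differentiated replicates, against 5.29, 5.61 and 6.36 CPM in undifferentiated ones. Every differentiated library was lower, the log2 fold change per gene was −0.96 (SE 0.226, edgeR adjusted p = 0.000161), and the call held under every alternative run at gene level.

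Both marks moved in the same direction where their regions met. Of the 10 HOX 5mC regions 8 overlapped at least 1 HOX 5hmC region, in 9 pairs, and in 9 of 9 pairs the log2 fold changes had the same sign. In pairs of other genes 91.8% of 25845 had the same sign, and in pairs at islands of other genes 90.7% of 936, so the HOX pairs are close to the background. The marks were captured from the same DNA preparations, so the pairs are not independent of each other. The HOXD3 region covers the same 1000 bases in both lists and was lower in both, by −1.01 (SE 0.225) for 5mC and −0.53 (SE 0.191) for 5hmC. The HOXA4 island region has a listed distance of 0 to the start in both lists. There 5hmC rose by 0.81 (SE 0.156), while 5mC was at 0.39 (SE 0.144) and just missed the threshold (edgeR adjusted p = 0.0504). The 5mC region of HOXA5 and HOXA6 rose by 0.38 (SE 0.0811), and the 5hmC regions that overlap it by 0.72 (SE 0.244) for HOXA5 and 0.83 (SE 0.172) for HOXA6. The HOXA6 region of 5hmC reaches beyond it and shares 1000 bases with it. In the shared island of HOXB6 and HOXB7 5mC rose by 0.27 (SE 0.0835), and 5hmC was at 0.07 (SE 0.146) and did not pass.

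HOX genes are unusually rich in CpG islands, so their island regions were set against the island regions of other genes. Of the 25 HOX regions with 5hmC in an island, 16 rose and 1 fell. In island regions of other genes, 4455 in all, 39.7% rose and 3.79% fell. The median log2 fold change was 0.58 in HOX islands (quartiles 0.30 and 0.73) and 0.36 in islands of other genes (0.14 and 0.58), a difference of 0.22. A positive change was seen in 23 of 25 HOX and in 84.3% of other island regions. The median width was 1000 bases in both sets, and the median level was 2.28 CPM per kb in HOX islands and 2.62 CPM per kb in the others. Under the alternatives that kept the island class the difference was 0.18 to 0.27. Set against this, the median log2 level (with 0.5 added to each count) of HOX islands minus that of other islands, taken library by library, was −0.20, −0.23 and −0.18 in differentiated replicates and −0.29, −0.14 and −0.28 in undifferentiated ones. The states overlapped in this measure of levels, and their means were −0.20 ± 0.0227 in differentiated and −0.24 ± 0.0838 in undifferentiated cells (SD, n = 3 each). So the shift seen in the median of fold changes was not seen in the medians of levels.

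The difference was wider in shores than in islands, and narrower in regions of neither class. The 31 HOX shore regions had a median of 0.45, with 15 higher and 6 lower, against 0.01 in 14952 shore regions of other genes. The 9 HOX regions in neither class had a median of 0.05, with 4 higher and 3 lower, against −0.11 in 153440 regions of other genes. With islands and shores pooled, the difference between HOX and other genes was 0.42. Medians within islands ranged from 0.45 in HOXB (10 regions) to 0.70 in HOXA (12 regions); HOXC had 2 island regions and HOXD 1. No test was made between these sets of regions, whose members were chosen with earlier results known.

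For 5mC the medians of HOX and other islands lay close together. The 6 HOX island regions had a median log2 fold change of 0.41, with 5 higher and 0 lower, against 0.39 in 1038 listed island regions of other genes, of which 67.7% were higher and 11.1% lower. The difference of 0.02 changed sign without differentiated replicate 3 or undifferentiated replicate 1. Library by library, the median log2 level of HOX islands minus that of other islands was 0.11, 0.13 and 0.23 in differentiated replicates, against −0.24, 0.05 and 0.03 in undifferentiated ones, without overlap. For 5mC, too, the 2 measures thus differ. The 3 HOX shore regions had a median log2 fold change of 0.47, with 2 higher and 0 lower, against −0.27 in 2741 listed shore regions of other genes.

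**Figure D4:**
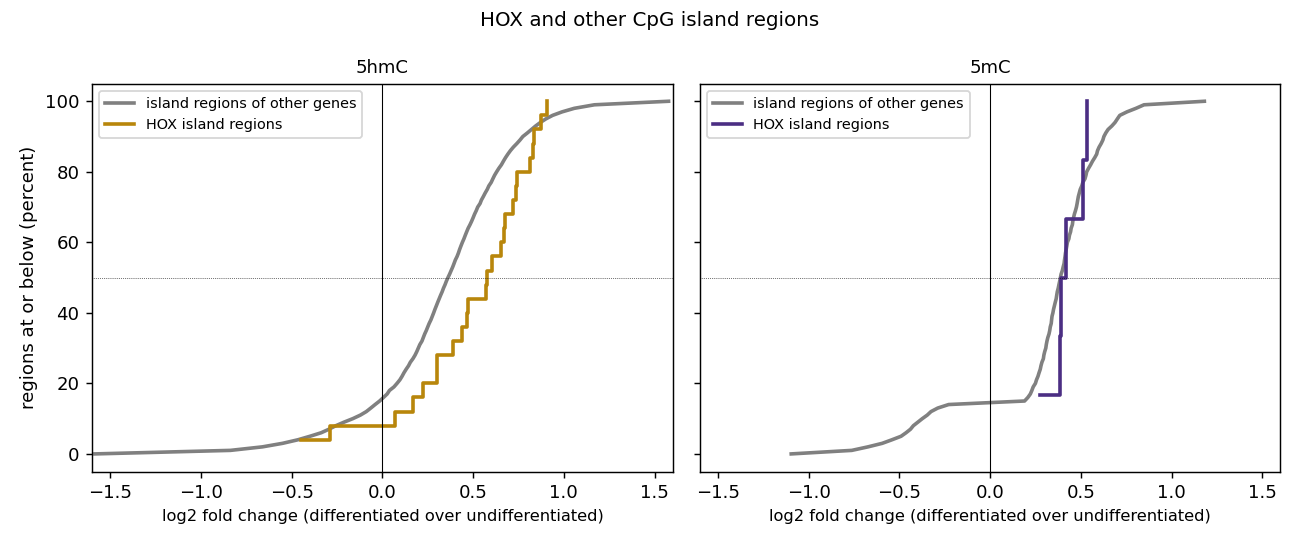
Percent of island regions at or below each log2 fold change (differentiated over undifferentiated), for HOX regions (coloured steps) and regions of other genes (grey), 5hmC left and 5mC right. For 5hmC the HOX curve lies right of the grey one over most of its range (medians 0.58 and 0.36), and for 5mC the curves cross (medians 0.41 and 0.39).

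Summed over its regions, 5hmC was higher in differentiated cells in each cluster. HOXA held 39.7, 35.0 and 40.0 CPM in differentiated replicates, against 29.5, 32.1 and 27.3 CPM in undifferentiated ones, a log2 difference of 0.37. HOXB held 54.6, 49.2 and 53.7 CPM in differentiated replicates, against 42.5, 42.5 and 42.6 CPM in undifferentiated ones, a difference of 0.30. HOXC held 32.0, 32.7 and 31.0 CPM in differentiated replicates, against 25.0, 22.9 and 23.9 CPM in undifferentiated ones, a difference of 0.42. The states did not overlap in these clusters or in HOXD, where the sums were 14.1, 15.2 and 14.1 CPM in differentiated and 11.3, 10.8 and 12.6 CPM in undifferentiated replicates (0.33). The exact two-sided permutation p was 0.1 for each cluster, the smallest that 3 against 3 libraries can give. With library totals the differences were 0.14, 0.07, 0.19 and 0.10 for HOXA, HOXB, HOXC and HOXD, and the states overlapped in all but HOXC.

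The listed 5mC sums went up in HOXA and HOXB and down in HOXD. HOXA held 106, 109 and 112 CPM of listed counts in differentiated replicates, against 81.0, 86.2 and 85.4 CPM in undifferentiated ones (log2 difference 0.37). HOXB held 64.4, 64.8 and 60.8 CPM in differentiated replicates, against 49.7, 48.4 and 51.1 CPM in undifferentiated ones (0.35). HOXD, which is the HOXD3 region alone, held 2.14, 2.75 and 3.77 CPM in differentiated replicates, against 5.39, 5.71 and 6.49 CPM in undifferentiated ones (−1.06). These sums use the TMM factors of the region fit, so they differ slightly from the HOXD3 values per gene. The states did not overlap in any of these 3 clusters (exact permutation p = 0.1, the smallest possible). The summed regions had been selected for a difference between these same libraries, and 86.1% of all listed regions did not overlap. The separation and its p were thus largely set in advance and give no further support. With library totals the differences were 0.11, 0.09 and −1.31, and the states overlapped in HOXB.

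**Figure D5:**
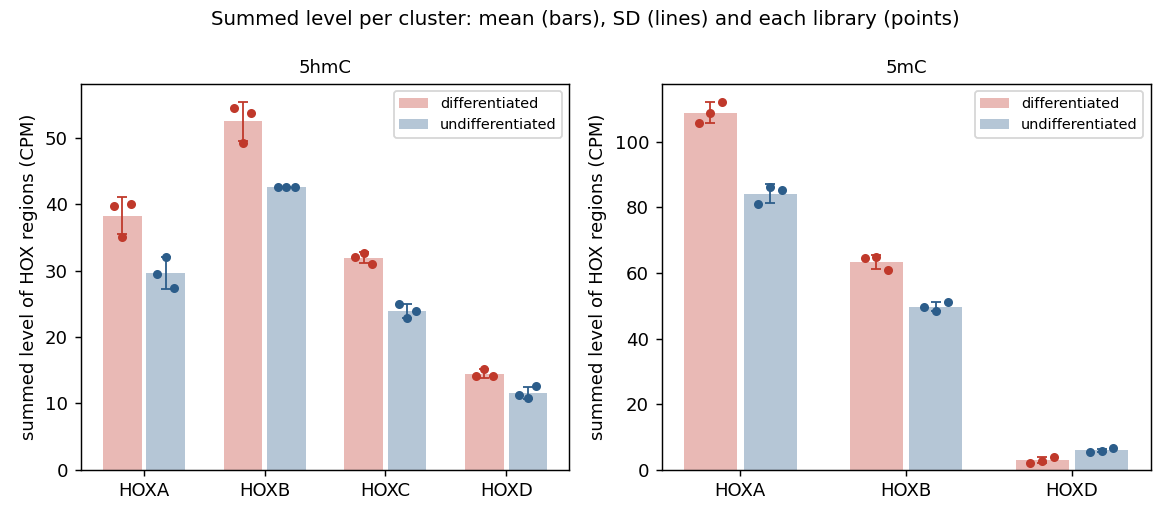
Summed 5hmC (left) and listed 5mC (right) of the HOX regions of each cluster in CPM, differentiated left of undifferentiated; bars are means, lines SD and points the 3 libraries. 5hmC is higher in differentiated cells in all 4 clusters, and 5mC is higher in HOXA and HOXB and lower in HOXD; no 5mC region is listed for HOXC.

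HOX proteins bind DNA together with MEIS, PBX and PKNOX homeodomain proteins. Of 9 genes for these partners 8 had 5hmC regions, and 6 rose and 2 fell, against 25.7% higher and 25.8% lower of all genes. MEIS1, the partner of HOXA9 in leukaemia, had 22.8, 21.0 and 20.4 CPM of 5hmC in differentiated replicates, against 16.4, 17.6 and 17.0 CPM in undifferentiated ones. All differentiated libraries were above the others (log2 fold change 0.33, SE 0.0668, edgeR adjusted p = 0.00129). PKNOX2 rose by as much (0.33), and PBX4 and PKNOX1 fell by 0.31 and 0.24. In the 5mC list 4 of 8 tested partners were higher and 1 lower, close to the 41.0% of all genes that were higher there. MEIS1 rose there too, by 0.88 (SE 0.265, edgeR adjusted p = 0.00245), on 1 region at 2.86, 4.76 and 4.43 CPM in differentiated and 2.65, 1.77 and 1.98 CPM in undifferentiated replicates. MEIS2 rose by 0.47, and MEIS3 fell by 0.47 in 5mC although its 5hmC rose by 0.27. The MEIS3 5mC value is that of 1 listed region, while its 5hmC value sums 8 regions.

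Among genes for regulators of HOX clusters more fell than rose in 5hmC. Of 27 genes of Polycomb and trithorax-type complexes, their demethylases, CTCF, YY1 and CDX factors, 23 were tested for 5hmC, and 2 rose, 10 fell and 11 did not pass, with a median of −0.15, against 25.7% higher and 25.8% lower of all genes. EZH1, which encodes a Polycomb methyltransferase, had 19.0, 22.0 and 19.2 CPM in differentiated replicates, against 31.0, 29.1 and 31.1 CPM in undifferentiated ones, with no overlap (log2 fold change −0.62, SE 0.0657, edgeR adjusted p = 2.75e-05). YY1, a DNA-binding factor linked to Polycomb, fell by 0.53, while PHC1, a Polycomb subunit gene, rose by 0.39 and CDX1, a homeobox activator of HOX genes, by 0.25. In the 5mC list 16 were tested, 5 higher and 9 lower, against 41.0% and 43.2% of all genes. EZH2, the other Polycomb methyltransferase gene, fell there by 0.77 and CBX7, for a Polycomb chromodomain protein, by 0.70. KDM6A, for a demethylase that opposes Polycomb, rose by 0.70. The gene listed under the older symbol MLL4 rose by 0.52; that symbol has been used for more than 1 gene and was read here as KMT2B.

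Sequencing depth differed between libraries. The 5hmC regions held 13010267 to 32495733 counts in differentiated and 15688562 to 33693880 in undifferentiated libraries, and the listed 5mC regions 7940755 to 9670011 and 6076100 to 6851769. The deepest libraries were differentiated replicate 3 and undifferentiated replicate 1 for 5hmC, and without one or the other 24 and 25 HOX regions were called in place of 45. Over all 5hmC regions 105251 and 102884 were called in place of 164904. Per-library counts in HOX regions of the 5mC list were 19 to 419. No input library was used here. P-values compare 3 biological replicates per state of 1 cell line.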

How the data were processed

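The submitters' processing notes name BWA, SAMtools 0.1.18, SICER 1.1, bedtools 2.17.0 and edgeR 2.11 with GRCh37 (hg19), giving no role for each. The authors deposited, for each mark, a table of regions on a 200-base grid with unnormalized read counts of the 6 libraries of that mark. Per the file headers the tables also hold the authors' log2 fold change and log2 CPM, p-value and adjusted p-value; these were used only to find the sign and the number of tests. Distances to genes, starts and CpG islands, in bases, are other deposited values. A distance of 0 to a start was also listed for some regions inside a gene that do not hold the start. Of 327949 listed 5hmC regions 18 had no counts and were left out. The 5mC list ended at a deposited p-value of 0.0165, which with its adjusted p-value implies 328588 tests, and 5mC region p-values were adjusted over that number. All regions of a mark, or counts summed per gene, were filtered with filterByExpr, scaled by TMM and tested with edgeR 4.0.16 (quasi-likelihood F test, Benjamini-Hochberg over all features, threshold 0.05) in R 4.3.3; DESeq2 1.42.0 was an alternative. HOX rows were then read out. CPM values use TMM-scaled library sizes; 5mC CPM is relative to listed counts only, and 5mC gene p-values carry no correction for the selection. The fit was tested on simulated data. HOX members and the partner, regulator, noncoding and flanking lists were chosen with earlier results of these data known. Values in every library are given for the 3 called genes of each mark and cluster with the largest absolute change, for HOXA7, HOXA9 and HOXA10, and for the region with the largest called change and the region with the highest level per kb; for other lists, the 2 called genes changed most in each direction are named. Genes or regions beyond this rule were chosen after their values were seen.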

Additional observations from a re-analysis of the deposited data

How the results depend on the processing

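With library totals in place of TMM scaling, TMM on the strongest 10% of features, and DESeq2's Wald test, the 45 called 5hmC HOX regions became 28, 20 and 13, the 35 higher ones 17, 9 and 12, and DESeq2 called 1 lower in place of 10. The 18 called 5hmC HOX genes were 11 with library totals and 9 with DESeq2, the 15 higher ones 8 and 9, and the 3 lower ones 0 with DESeq2. The 8 called 5mC regions were 2, 2 and 1 (7 higher became 0, 0 and 1; 1 lower became 2, 2 and 0), and the 10 called 5mC genes were 1 with library totals and 6 with strong-gene TMM (9 higher became 0 and 5). Keeping only regions inside genes left 29 called 5hmC regions, 5 of them lower. Leaving out 1 library gave 24 to 44 called 5hmC regions (22 to 35 higher, 2 to 9 lower), 9 to 18 genes (8 to 15 higher, 0 to 3 lower), and for 5mC 4 to 6 higher and 1 to 2 lower regions. Cluster sums with library totals were 0.14, 0.072, 0.19 and 0.10 (5hmC, HOXA to HOXD) and 0.11 and 0.093 (5mC, HOXA and HOXB). In islands alone they were 0.64 in HOXC and 0.66 in HOXD for 5hmC, and 0.43 in HOXA and 0.27 in HOXB for 5mC. The island difference was 0.42 for 5hmC with shores added; for 5mC it was −0.0124 to 0.101 when 1 library was left out, and it reversed to −0.00491 without differentiated replicate 3 and to −0.0124 without undifferentiated replicate 1. Its strong-region TMM, no filter and replicate block settings were added after the data were seen. Same-numbered libraries correlated at −0.103 to 0.000590 in their deviations for 5hmC and −0.00960 to 0.0112 for 5mC, so the numbers were not taken to pair them; with a replicate block 37 5hmC regions (32 higher, 5 lower) and 13 genes (12 higher, 1 lower) were called. Removing the filter on low counts kept all 32 named results on their side of the threshold. The causes of these shifts were not tested. Counts of 4 to 195 per HOX region limit what single 5hmC regions can show.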

Other observations

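Noncoding genes inside the clusters share regions with the HOX genes around them. Of 23 listed, 12 had 5hmC regions, and 6 rose and 2 fell by edgeR's quasi-likelihood test, against 25.7% higher and 25.8% lower of all genes. HOXB-AS3, antisense RNA gene of the central HOXB genes, had 3.06, 2.50 and 2.53 CPM in differentiated replicates, against 1.45, 1.57 and 1.26 CPM in undifferentiated ones (log2 fold change 0.90, SE 0.181, edgeR adjusted p = 0.00126). Its 1 region is the shore region inside HOXB6 described above (chr17:46674201-46674800). HOXD-AS2 rose by 0.82, and HOTAIR, a noncoding RNA gene of the HOXC cluster, by 0.66 (SE 0.133), at 8.63, 8.65 and 6.64 CPM in differentiated and 4.53, 4.85 and 5.60 CPM in undifferentiated replicates. HOXD-AS1 fell by 0.79 and HOXA11-AS by 0.69, on the same region as HOXA11. HOTAIR was named after its values were seen. MIR10A, which lies in the HOXB cluster, rose by 0.64 and was also named after its values were seen. In the 5mC list 4 were tested and all 4 were higher, against 41.0% of all genes, led by HOXD-AS2 (0.60) and HOXA-AS3 (0.44).

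Among genes that flank the clusters more fell than rose in 5hmC. Of 15 flanking genes with 5hmC regions 1 rose and 9 fell, against 25.7% higher and 25.8% lower of all genes, with a median log2 fold change of −0.28, against 0.27 for the HOX genes and 0.01 for all genes. CBX5, a heterochromatin protein gene near HOXC, had 14.8, 15.5 and 14.5 CPM in differentiated replicates, against 22.1, 22.6 and 22.9 CPM in undifferentiated ones (−0.60, SE 0.0621, edgeR adjusted p = 2.44e-05). ATP5G2, for an ATP synthase subunit, fell by 0.55, and SKAP2, for an adaptor protein of blood cells near HOXA, rose by 0.22. In the 5mC list 3 of 14 were higher and 8 lower, against 41.0% and 43.2% of all genes, with a median of −0.34: EVX2, the homeobox gene beside HOXD, rose by 0.76 and CALCOCO1 by 0.53, and SNX11 and SKAP2 fell by 1.02 and 0.91. SKAP2 was thus higher in 5hmC, summed over 23 regions, and lower in 5mC, on 1 listed region at 1.98 to 4.95 CPM. The difference between flanking and HOX genes was not tested.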
